A study of Homo sapiens with 12 samples.

Results

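The RNF genes carry the symbol RNF, for RING finger protein, followed by a number. They were followed here in 2 human colorectal carcinoma lines in which one of them, RNF26, was overexpressed. Protein-coding genes with such a symbol were taken from the deposited table, leaving out RNF26 itself and RNF43. Of the 82 genes found, 64 reached 1 TPM (transcript abundance as a share of a library, corrected for transcript length) in at least 3 of the 12 libraries, out of 15584 genes that did so in all. The 4 groups of 3 libraries were HCT15 cells overexpressing RNF26, HCT15 control cells, HCT116 cells overexpressing RNF26 and HCT116 control cells. The labels do not say how RNF26 was introduced, what the control cells received or whether the libraries came from separate cultures or clones. The p-values therefore rest on the spread of these 12 libraries, and that spread may be technical alone.

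A RING finger is a zinc-binding fold that holds a ubiquitin-conjugating (E2) enzyme close to a protein and lets ubiquitin pass on to it, so most RNF proteins are E3 ubiquitin ligases. The symbol groups proteins by this fold and not by a shared pathway. Some members act on histones and at DNA breaks, some on stalled ribosomes, others in the membranes of the endoplasmic reticulum, Golgi or endosomes, and others in immune signalling. RNF26 sits in the endoplasmic reticulum membrane, and the comparisons ask whether its relatives shifted at the mRNA level where it was overexpressed.

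The level of RNF26 followed the labels in both lines. RNF26 measured 53.54, 54.59 and 54.41 TPM in the HCT15 RNF26 libraries, against 26.71, 27.84 and 26.39 TPM in HCT15 control. It measured 298.54, 333.82 and 255.16 TPM in the HCT116 RNF26 libraries, against 15.57, 18.4 and 16.53 TPM in HCT116 control. The level was thus 2.01 times the control mean in HCT15 and 17.6 times in HCT116, with no overlap in either line. An exact two-sided permutation test gave p = 0.1 in each line, the smallest value that 3 against 3 libraries allow. Among RNF26 and the 64 members, RNF26 ranked 4 of 65 by mean level in HCT15 RNF26 cells and 17 in HCT15 control cells. It ranked 1 of 65 in HCT116 RNF26 cells and 27 in HCT116 control cells.

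Between 13582 and 14135 genes reached 1 TPM in a library. Read depth cannot be recovered from TPM, and the precision from counting is unknown. Of 9 colorectal epithelium markers, 8 reached 1 TPM (EPCAM 193 to 572 TPM), while CDX1 stayed at 0.07 TPM or less. The leukocyte marker PTPRC stayed at 0.04 TPM or less, and none of 4 endothelial, 1 of 6 fibroblast, 1 of 5 leukocyte (CD68) and 3 of 3 erythroid markers reached 1 TPM, the last at 7.1 TPM or less. Mitochondrial transcripts and ribosomal protein genes together took 43.4 to 45.1% of TPM in HCT15 RNF26 libraries and 38.4 to 42.5% in HCT15 control, against 40.3 to 42.9% and 40.9 to 41.8% in HCT116 RNF26 and HCT116 control. HCT15 control replicate 3 stood apart, with 25.9% of TPM in mitochondrial transcripts and 16.6% in ribosomal protein genes.

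The members were mostly well expressed. Of the 64, 55 reached 1 TPM in all 12 libraries, 40 averaged 10 TPM or more, and the median of their mean levels was 15.1 TPM, against 8.57 TPM over all genes tested. RNF181, a little characterised ligase, was the highest at 139 TPM on average, followed by RNF167, a lysosomal membrane ligase, at 68.9 TPM. RNF220, which has been linked to beta-catenin stability, averaged 47.1 TPM, RNF114 45.2 TPM and RNF4, which recognises SUMO-tagged proteins, 44.1 TPM. The 5 together made up 27.3% of the members' TPM. Just inside the filter, RNF157 and RNF224 reached 1 TPM in 5 libraries each. Just outside it, RNF165 reached 1 TPM in 1 library, at 1.31 TPM, and the other 17 genes left out reached it in none.

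With RNF26 overexpression in HCT15, 27 of the 64 members fell and none rose. This is 42.2% of the members called lower, against 31.2% of all genes tested called lower and 5.39% called higher (limma, Benjamini-Hochberg adjusted p under 0.05 over all genes). By unadjusted p under 0.05, 30 members were lower and 3 higher, against 7079 of 15584 genes in either direction. The median log2 fold change of the members was -0.25, against -0.17 for all genes, so much of the table lay below 0 in this comparison. In such bulk libraries, fewer cells of a type and less RNA per cell cannot be told apart. In 28 members every RNF26 library lay below every control library, and in 1 member, RNF130, every RNF26 library lay above, against 35.9% and 7.23% of all genes. The summed TPM of the members was 1269 to 1328 in HCT15 RNF26 libraries and 1440 to 1559 in HCT15 control.

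The HCT15 count depended on how the libraries were scaled. With each library scaled by its median ratio to the others, the median of all genes moved to 0 and 14 members were lower and 6 higher, against 16.7% and 14.4% of all genes. All 14 were among the 27. The 5 members called higher under both this scaling and quantile normalization were RNF130, RNF145, RNF2, RNF32 and RNF7. Quantile normalization gave 12 members lower and 6 higher, against 16.2% and 14.6% of all genes. Left without mitochondrial and ribosomal protein genes, whose share of TPM moved with the group, the table gave 17 members lower and 3 higher, against 23.0% and 8.78% of all genes. Without HCT15 control replicate 3 it gave 22 lower and 0 higher, against 4466 and 651 of 15414 genes. The summed epithelial marker level also differed, at 4357 to 4543 TPM in HCT15 RNF26 libraries and 4821 to 5599 TPM in HCT15 control. KRT8, KRT19, CDH1, CDX2 and VIL1 lay wholly lower in HCT15 RNF26 libraries, while EPCAM, KRT18, KRT20 and CDX1 overlapped. The part of this sum in the result was not tested.

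**Figure D1:**
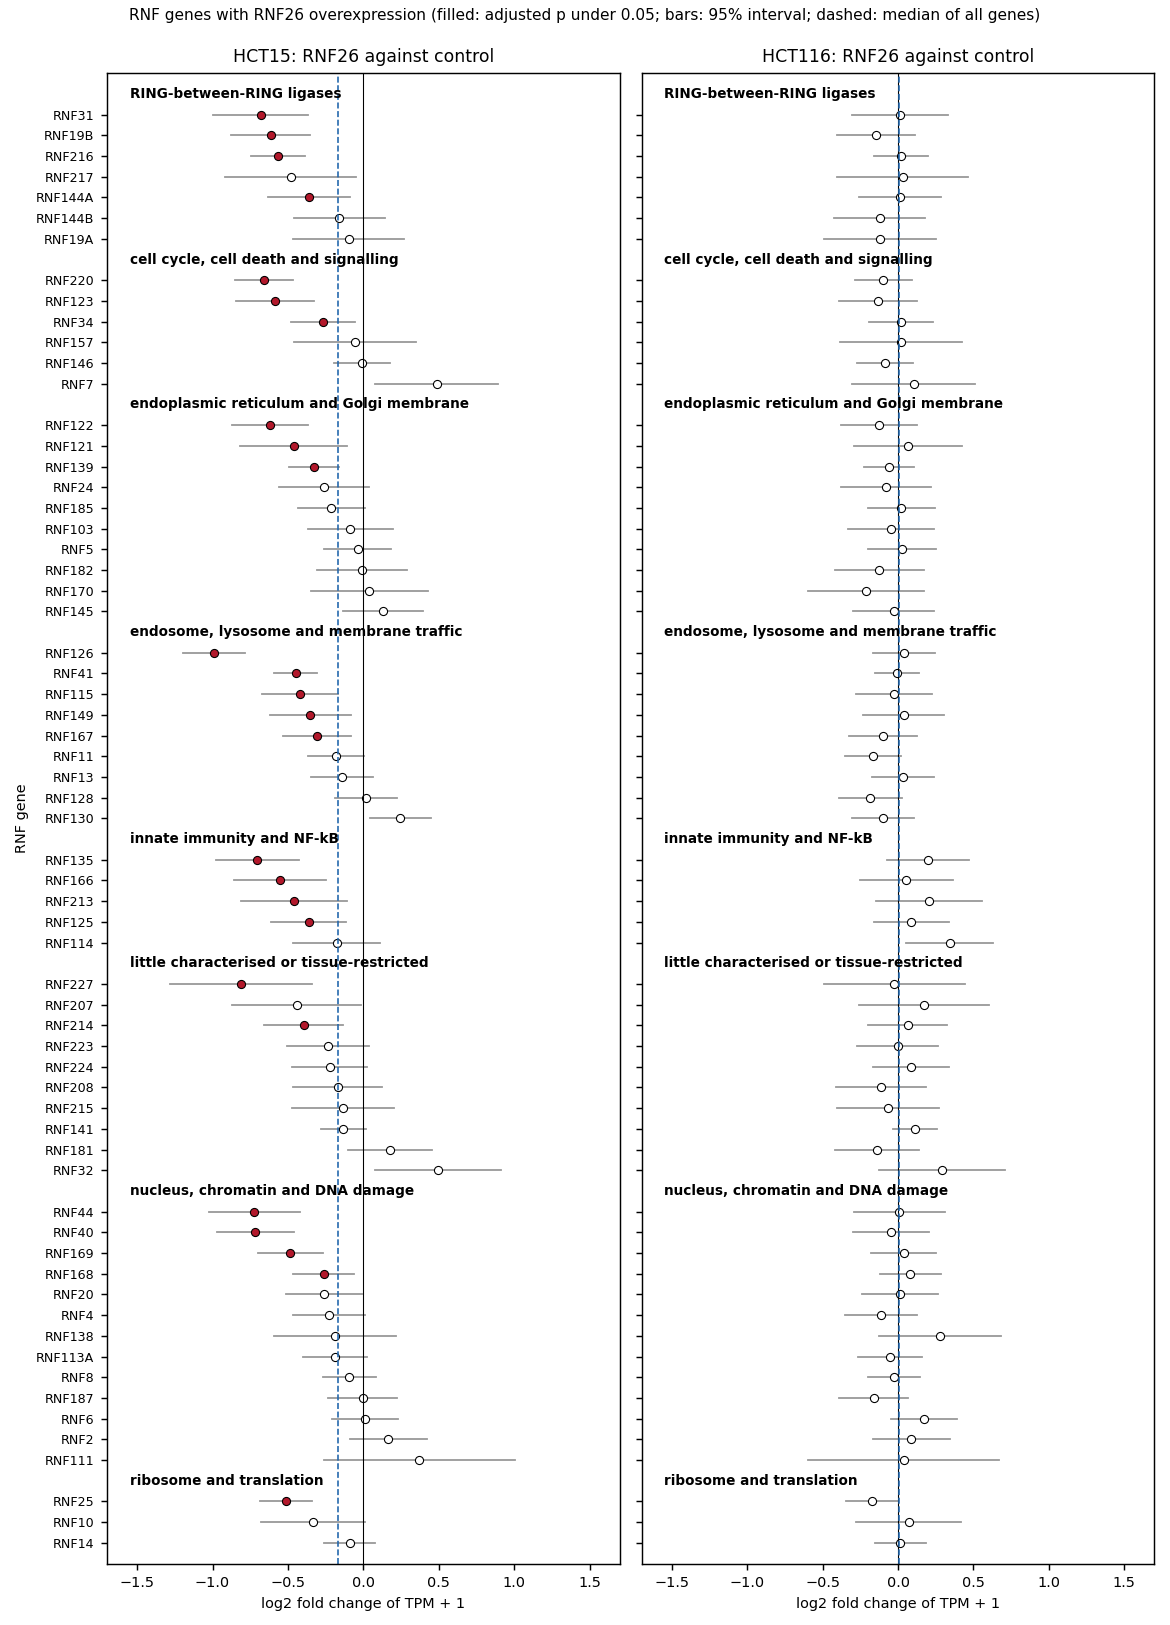
Log2 fold change of TPM + 1 (x axis) for 63 of the 64 RNF genes, grouped by role (y axis), for RNF26 against control in HCT15 (left) and HCT116 (right). Points are limma estimates, bars are 95% intervals, filled points have an adjusted p under 0.05 and the dashed line is the median of all genes, and 26 points are filled in HCT15 and 0 in HCT116.

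The 9 members that fell in HCT15 under each of the alternative settings that tested them were RNF126, RNF40, RNF135, RNF220, RNF122, RNF19B, RNF216, RNF25 and RNF41. The largest fall on the log2(TPM + 1) scale was that of RNF126, a cytosolic ligase that works with BAG6 on proteins that failed to reach their membrane (chromosome 19, 647526 to 663277, minus strand, GRCh38). It measured 21.4, 19.1 and 22.23 TPM in HCT15 RNF26 libraries, against 46.97, 42.17 and 38.54 TPM in HCT15 control. The groups did not overlap, with a log2 fold change of -0.99 ± 0.09 (SE) and an adjusted p of 5e-05 by limma. By the ratio of mean TPM, RNF122 was lower still, at 0.454 of its HCT15 control mean, against 0.491 for RNF126. In HCT116, RNF126 measured 37.36, 43.39 and 35.74 TPM in RNF26 libraries and 36.99, 37.39 and 38.48 TPM in control, and these groups overlapped.

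RNF126 and RNF115 are close relatives, and both fell in HCT15. RNF115 measured 3.27, 3.87 and 2.77 TPM in HCT15 RNF26 libraries, against 4.79, 5.3 and 4.12 TPM in HCT15 control, without overlap (log2 fold change -0.42, adjusted p = 0.015 by limma). This call was lost with median-ratio scaling, where the adjusted p was 0.0925. The share of RNF115 in the pair's summed TPM was 11.1 to 16.8% in HCT15 RNF26 libraries and 9.25 to 11.2% in HCT15 control, with overlap, and the sizes of the 2 falls were not tested against each other. The 150 bases that lie from 250 to 101 bases before the RefSeq start of each gene are shown because both relatives were called lower. The RefSeq start of RNF126 lies inside the annotated gene given above, so its stretch is nearer to that gene's edge. The stretches are from RefSeq (GRCh38.p14, minus strand, 5′ to 3′), at chr19:663315-663464 for RNF126 and chr1:145824196-145824345 for RNF115, and capitals mark the GC box GGGCGG or its reverse CCGCCC.
RNF126: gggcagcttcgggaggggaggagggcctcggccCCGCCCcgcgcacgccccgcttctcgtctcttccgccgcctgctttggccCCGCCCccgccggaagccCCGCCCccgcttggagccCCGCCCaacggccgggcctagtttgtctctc
RNF115: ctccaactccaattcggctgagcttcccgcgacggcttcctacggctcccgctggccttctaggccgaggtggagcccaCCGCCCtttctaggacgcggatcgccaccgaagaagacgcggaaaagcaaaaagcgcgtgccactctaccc
The RNF126 stretch holds 4 such boxes in 77.3% GC, and the RNF115 stretch 1 in 63.3% GC. The same stretches of RNF40, which also fell, and of its partner RNF20, which was not called, hold 0 boxes in 61.3% GC each. Over the 250 bases before the start, a GC box on either strand was found in 38 of 55 member promoters in the table, or 69.1%. It was found in 68.5% of 10015 promoters of tested protein-coding genes, so the members' share was near that background, and in 42.6% of all 35116 promoters, many of genes not expressed here. Among the members called lower in HCT15 it was found in 16 of 22, or 72.7%. A match is a description of these letters and not a binding site.

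Among the 14 nuclear, chromatin and DNA damage members, 5 fell in HCT15 and none rose, or 35.7% lower, near the 31.2% of all genes. With median-ratio scaling 3 were lower and 1 higher, against 16.7% and 14.4% of all genes. RNF40 (chromosome 16, 30761745 to 30776307), which pairs with RNF20 to place ubiquitin on histone H2B, measured 14.25, 17.19 and 13.34 TPM in HCT15 RNF26 libraries, against 27.17, 23.98 and 24.03 TPM in HCT15 control. The groups did not overlap, and the log2 fold change was -0.72 (adjusted p = 0.000765 by limma). Its partner RNF20 measured 17.51, 18.66 and 16.67 TPM in HCT15 RNF26 libraries and 21.33, 17.41 and 26.07 TPM in HCT15 control, with overlap and an adjusted p of 0.0958 by limma. RNF169, which binds ubiquitinated histone H2A at DNA breaks, fell by 0.49 and RNF168, which writes that mark, by 0.26 on the log2 scale. The RNF169 and RNF168 calls were held in 23 and 7 of 24 alternatives. RNF44 fell by 0.72 on the log2 scale, and the GC and length correction ended the RNF44 call (adjusted p = 0.136 by limma). RNF2, the catalytic subunit of Polycomb repressive complex 1, RNF8 and RNF4 were not called.

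RING-between-RING ligases carry ubiquitin on their own catalytic cysteine before passing it on. Of the 7 members listed in this role, 4 fell in HCT15, against 31.2% of all genes. Median-ratio scaling gave 3 lower and 0 higher, against 16.7% and 14.4% of all genes. RNF14, a further ligase of this class, was listed under ribosome and translation instead. It was not called in HCT15 (log2 fold change -0.09). RNF216 measured 6.03, 6.41 and 5.78 TPM in HCT15 RNF26 libraries, against 9.52, 9.47 and 9.42 TPM in HCT15 control, a log2 fold change of -0.57 without overlap (adjusted p = 0.000413 by limma). Its pseudogene RNF216P1 averaged 3.54 TPM in HCT15 RNF26 libraries and 4.4 TPM in HCT15 control, so reads may be split between the pair. RNF19B measured 15.93, 19.87 and 17.05 TPM in HCT15 RNF26 libraries, against 29.78, 25.4 and 27.17 TPM in HCT15 control, a log2 fold change of -0.61. RNF31, the catalytic subunit of the complex that builds linear ubiquitin chains, fell by 0.68 on the log2 scale. This call was held in 23 of 24 alternatives. RNF144A, which has been linked to DNA damage signalling, fell by 0.36, a call held in 9 of the 23 alternatives that tested it. RNF31 shares exon bases with PSME2 on the other strand, as do RNF25 with STK36, RNF220 with TMEM53, RNF123 with GMPPB, RNF40 with CFAP119 and RNF167 with SLC25A11. The same holds, among others, for RNF169 with XRRA1, RNF214 with BACE1, RNF34 with KDM2B and RNF32 with LMBR1. Over all libraries XRRA1 averaged 8.94 TPM against 6.7 TPM for RNF169, and LMBR1 14.6 TPM against 2.62 TPM for RNF32. No source used here says whether counting used strand, so reads of these pairs may be mixed.

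Of the 5 innate immunity members, 4 fell in HCT15, against 31.2% of all genes. But 1 was lower with median-ratio scaling, against 16.7% of all genes. RNF135, also called Riplet, which activates the RNA sensor RIG-I, measured 8.31, 9.15 and 9.21 TPM in HCT15 RNF26 libraries, against 16.65, 16.21 and 12.72 TPM in HCT15 control. The groups did not overlap and the log2 fold change was -0.70 (adjusted p = 0.00135 by limma). RNF166 fell by 0.55, the giant ligase RNF213 by 0.46 and RNF125, which marks RIG-I for degradation, by 0.36 on the log2 scale. RNF166 was called in 20, RNF213 in 9 and RNF125 in 14 of 24 alternatives. The RNF166 call was lost with median-ratio scaling (adjusted p = 0.0895 by limma). RNF114 measured 61.33, 45.66 and 65.24 TPM in HCT15 RNF26 libraries and 70.67, 67.32 and 55.83 TPM in HCT15 control, with overlap.

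Of 9 members listed under endosomes, lysosomes and membrane traffic, 5 fell in HCT15, against 31.2% of all genes. Median-ratio scaling gave 2 lower and 1 higher, against 16.7% and 14.4% of all genes. The 5 include RNF126 and RNF115, described above, beside RNF41, RNF149 and RNF167. RNF41, also called Nrdp1, which directs the receptor ERBB3 to degradation, measured 55.5, 49.67 and 48.07 TPM in HCT15 RNF26 libraries, against 69.4, 73.08 and 67.57 TPM in HCT15 control. That is a log2 fold change of -0.45 without overlap (adjusted p = 0.000437 by limma). RNF149 fell by 0.35 and RNF167 by 0.31 on the log2 scale, with overlap in both, and were called in 10 and 13 of 24 alternatives. RNF130 ran the other way, at 29.09, 31.78 and 29.6 TPM in HCT15 RNF26 libraries against 26.16, 28.49 and 21.67 TPM in HCT15 control, with an adjusted p of 0.0591 by limma as deposited and 0.0023 with median-ratio scaling.

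Of 10 members of the endoplasmic reticulum and Golgi membrane, 3 fell in HCT15, a share near the 31.2% of all genes. Median-ratio scaling gave 1 lower and 1 higher, against 16.7% and 14.4% of all genes. RNF122 measured 0.64, 1 and 0.75 TPM in HCT15 RNF26 libraries, against 1.77, 1.79 and 1.7 TPM in HCT15 control. RNF139, also called TRC8, a sterol-responsive ligase, fell by 0.33 on the log2 scale, a call lost with median-ratio scaling (adjusted p = 0.155 by limma), and RNF121 fell by 0.46, a call held in 8 of 24 alternatives. RNF5 and RNF185, both of which act in the degradation of misfolded membrane proteins, had log2 fold changes of -0.04 and -0.21 and were not called.

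Among the remaining roles, 3 of 6 members of cell cycle, cell death and signalling fell in HCT15, against 31.2% of all genes. Median-ratio scaling gave 2 lower and 1 higher, against 16.7% and 14.4% of all genes. RNF220 (chromosome 1, 44405194 to 44651724) measured 44.13, 46.18 and 48.57 TPM in HCT15 RNF26 libraries, against 79.18, 63.77 and 78.88 TPM in HCT15 control, a log2 fold change of -0.66 without overlap (adjusted p = 0.000249 by limma). RNF123, which with UBAC1 forms the KPC ligase of the cell cycle inhibitor p27, fell by 0.58 on the log2 scale, and RNF34 by 0.27. These calls were held in 23 and 4 of 24 alternatives. RNF7, the RING subunit of cullin-5 ligases, measured 27.29, 27.58 and 23.03 TPM in HCT15 RNF26 libraries and 17.32, 26.36 and 13.11 TPM in HCT15 control, with overlap and an adjusted p of 0.0623 by limma. Of the 3 members of ribosome and translation, 1 fell in HCT15, or 33.3%, near the 31.2% of all genes. Median-ratio scaling gave 1 lower and 0 higher, against 16.7% and 14.4% of all genes. RNF25, which acts at stalled ribosomes, measured 16.37, 14.29 and 14.78 TPM in HCT15 RNF26 libraries, against 21.13, 21.37 and 23.68 TPM in HCT15 control (log2 fold change -0.51). RNF10 and RNF14 were not called, with log2 fold changes of -0.33 and -0.09. Of the 10 little characterised or tissue-restricted members, 2 fell, against 31.2% of all genes. Median-ratio scaling gave 1 lower and 2 higher, against 16.7% and 14.4% of all genes. RNF227 measured 2.33, 3.41 and 4.84 TPM in HCT15 RNF26 libraries, against 5.96, 5.36 and 9.45 TPM in HCT15 control, without overlap (log2 fold change -0.81, adjusted p = 0.012 by limma). This call was held in 21 of 24 alternatives. RNF214 fell by 0.39 on the log2 scale, a call held in 13 of 24 alternatives. Of the 8 members with a described link to Wnt signalling, RNF220 alone was called lower and 0 higher, against 31.2% of all genes called lower. Its call was the only one in this list with median-ratio scaling too, at 1 lower and 0 higher, against 16.7% and 14.4% of all genes. RNF146, the ligase that marks PARylated axin, had a log2 fold change of -0.01.

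**Figure D2:**
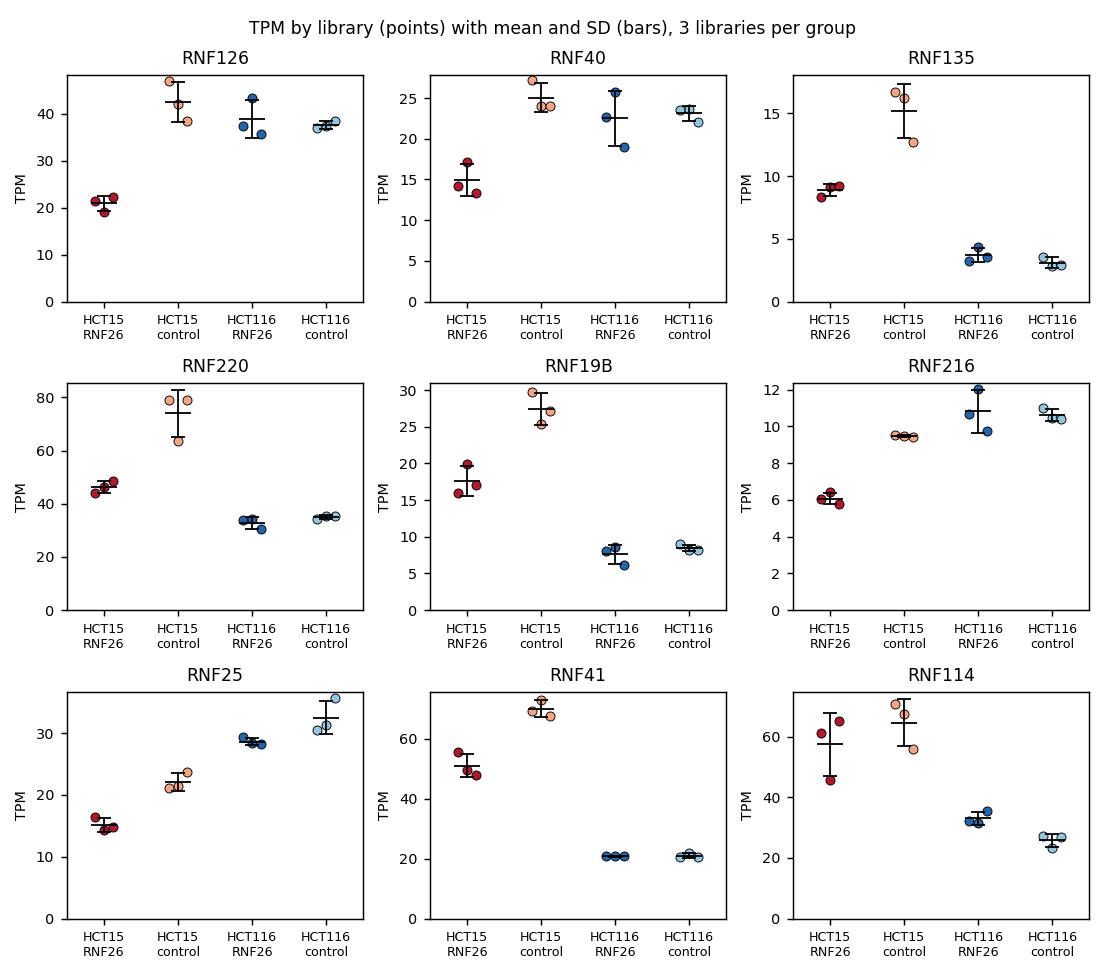
TPM (y axis) of 9 RNF genes in each library of the 4 groups (x axis), with points for libraries and bars for the mean and SD of 3. In HCT15 the RNF26 points of RNF126, RNF40, RNF135, RNF220, RNF19B, RNF216, RNF25 and RNF41 all lie below the control points, while those of RNF114 overlap.

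The falls in HCT15 went along with the GC content of the transcripts. Over the 64 members, Spearman's rho between log2 fold change and median transcript GC was -0.41, and over 14849 genes with GC and length values it was -0.42. Genes are not independent replicates, and all points share the same libraries. The 16 members with 55% GC or more had a median log2 fold change of -0.50 and 9 were called lower, while the 19 members under 45% GC had a median of -0.10 and 5 were called lower. After a correction for GC and length these medians were -0.15 and -0.13, and 15 members were lower and 4 higher, against 16.2% and 11.9% of all genes. RNF126, at 65.2% GC, was still called, with a log2 fold change of -0.57.

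**Figure D3:**
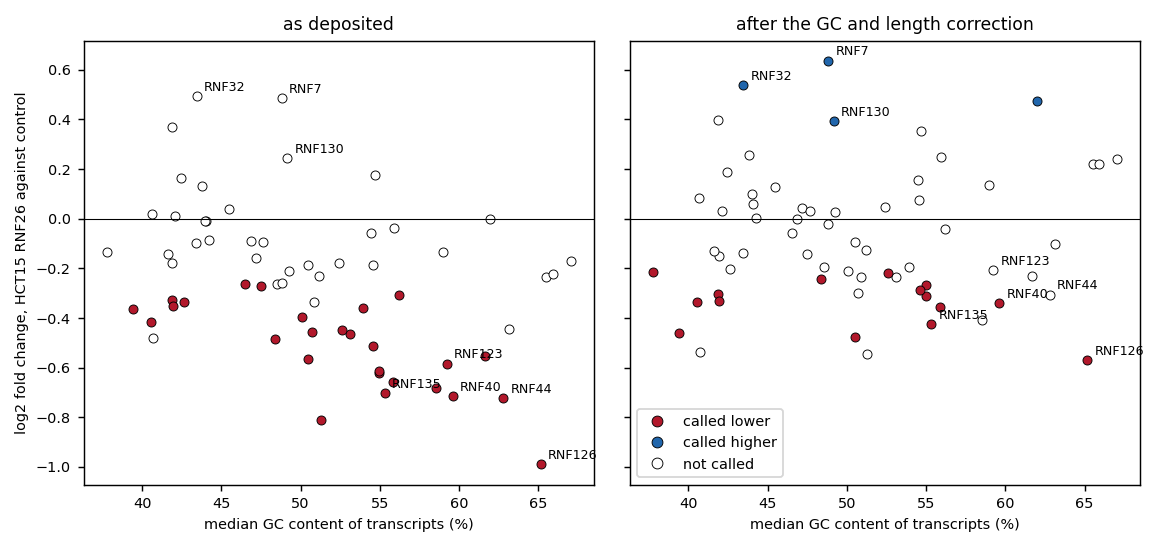
Log2 fold change in HCT15 (y axis) against the median GC content of each gene's transcripts in percent (x axis) for the 64 RNF genes, as deposited (left) and after the GC and length correction (right). Filled points were called, 27 lower as deposited and 15 lower with 4 higher after the correction.

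The makeup of pairs of related genes was also compared. In 13 pairs of relatives, the share of the first gene in the summed TPM of its pair does not depend on the scaling of a library. That share did not overlap between HCT15 RNF26 and HCT15 control in 8 pairs (narrowly in RNF20 with RNF40, where RNF20 made up 52.05% or more in HCT15 RNF26 and 52.04% or less in HCT15 control), and between HCT116 RNF26 and HCT116 control in 1 pair, RNF115 with RNF126. No such share was computed over pairs of other genes, and 35.9% of single genes lay wholly lower and 7.23% wholly higher in HCT15, so these counts are not read as particular to RNF relatives. RNF19A made up 50.5 to 51.5% of the RNF19A and RNF19B sum in HCT15 RNF26 libraries and 38.1 to 45.03% in HCT15 control. RNF130 made up 65.3 to 68.2% of the RNF130 and RNF149 sum in HCT15 RNF26 libraries and 54.4 to 58.1% in HCT15 control. RNF139 made up 32.2 to 35.3% of the RNF139 and RNF145 sum in HCT15 RNF26 libraries and 40.3 to 45.1% in HCT15 control. These shares are given as a description without a test.

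**Figure D4:**
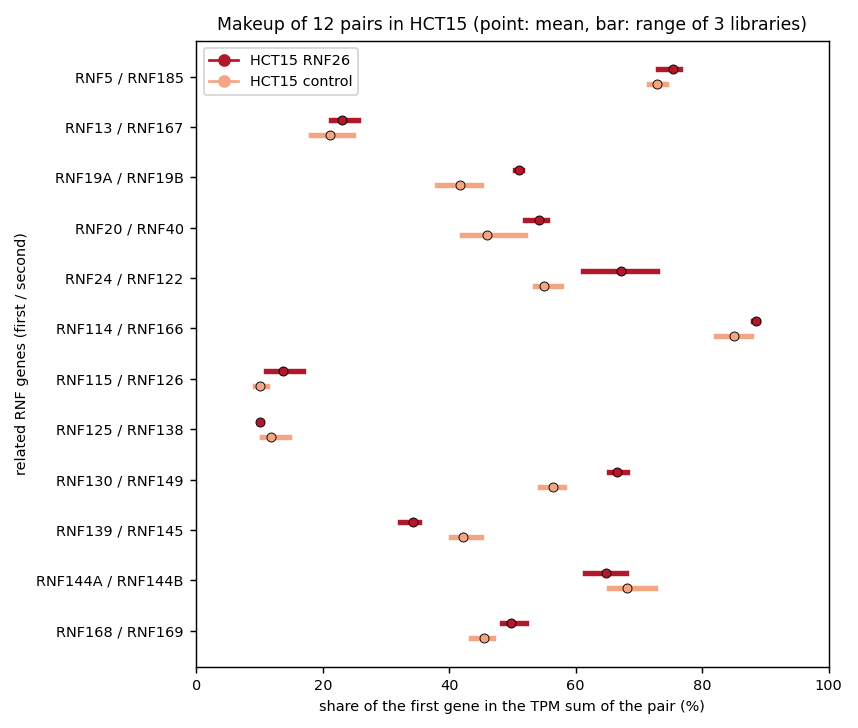
Share in percent (x axis) of the first gene in the summed TPM of each of 12 of the 13 pairs of related RNF genes (y axis) in HCT15 RNF26 and HCT15 control libraries, with points for means and bars for the range of 3 libraries. The ranges of 8 pairs are apart, among them RNF19A with RNF19B, RNF130 with RNF149 and RNF139 with RNF145.

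In HCT116, where RNF26 rose the most, no member was called in either direction by limma, and RNF26 was the only gene called, or 0.00642% of all genes. By unadjusted p under 0.05, 1 member was higher and 1 lower, against 657 of 15584 genes in either direction. The log2 fold changes ran from -0.21 to 0.34 with a median of 0.01, and all adjusted p were 1. The 95% intervals of all 64 members lay within -1 to 1 on the log2 scale, and those of 56 within -0.5 to 0.5. The groups did not overlap in 8 members, against 12.8% of all genes.

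The member with the smallest p in HCT116 was RNF114, at 32.21, 31.47 and 35.41 TPM in RNF26 libraries against 27.29, 23.37 and 26.88 TPM in control. The groups did not overlap, and the log2 fold change was 0.34 (95% interval 0.05 to 0.63, adjusted p = 1 by limma). RNF25 measured 29.31, 28.4 and 28.15 TPM in HCT116 RNF26 libraries and 30.53, 31.37 and 35.62 TPM in HCT116 control, again without overlap, with a log2 fold change of -0.17. RNF11, RNF128, RNF6 and RNF141 followed by p, with log2 fold changes of -0.17, -0.18, 0.17 and 0.11 and no overlap. The summed TPM of the members was 1101 to 1148 in HCT116 RNF26 libraries and 1106 to 1154 in HCT116 control.

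The difference between lines was tested as an interaction, which uses the same control libraries as the comparisons above. For 10 of the 64 members, or 15.6%, the effect in HCT15 was more negative than in HCT116, and for none more positive, against 18.7% and 1.80% of all genes. The largest differences in log2 fold change, HCT15 minus HCT116, were those of RNF126 at -1.03 ± 0.13 (SE, adjusted p = 0.00133 by limma) and RNF135 at -0.90 ± 0.18 (adjusted p = 0.00643 by limma). These 2 were called in every alternative. RNF216, RNF41, RNF220, RNF40, RNF44, RNF169, RNF31 and RNF166 were called as deposited and lost in at least 1 alternative each. With median-ratio scaling 4 members were more negative and 1, RNF130, more positive, against 7.35% and 5.99% of all genes. Quantile normalization left 2 more negative and 1 more positive, against 6.90% and 5.49%, and the GC and length correction left 4 and 2, against 6.82% and 4.24%. Without HCT15 control replicate 2, 15 members were more negative and 2 more positive, against 3210 and 636 of 15385 genes.

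The levels of the members differed between the control cells of the lines, the same libraries that served as controls above. In HCT15 control 32 members were higher and 10 lower than in HCT116 control, against 43.6% and 26.0% of all genes (limma). The median of all genes was 0.22 on the log2 scale, and with median-ratio scaling the counts were 28 higher and 14 lower, against 37.1% and 32.0% of all genes. A fold of 2 or more was seen in 14 of the members called higher and 4 of those called lower on the log2(TPM + 1) scale, and in 18 and 4 by the ratio of mean TPM. RNF128, RNF182, RNF227, RNF157 and RNF224 passed the level filter through one line alone and so had to differ, and these counts include them.

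RNF135 measured 16.65, 16.21 and 12.72 TPM in HCT15 control, against 3.58, 2.8 and 2.91 TPM in HCT116 control (log2 fold change 1.98). RNF213 averaged 26.8 ± 2.69 TPM in HCT15 control and 5.9 ± 0.83 TPM in HCT116 control, and RNF41 70.0 ± 2.81 and 21.0 ± 0.778 TPM (SD, n = 3 each). All 3 held in every alternative. RNF113A, RNF170, RNF207 and RNF19B were also higher in HCT15 control, by 1.88, 1.76, 1.60 and 1.58 on the log2 scale. But RNF207 overlaps the ribosomal protein gene RPL22 and RNF113A overlaps NDUFA1 on the other strand, at far higher levels. RPL22 and NDUFA1 themselves were lower in HCT15 control, with log2 fold changes of -0.38 and -0.66. Whether reads of these pairs were mixed was not tested.

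RNF128, also called GRAIL, a ligase known from T cell anergy, was at 0.06, 0 and 0.05 TPM in HCT15 control, against 7.71, 8.64 and 7.85 TPM in HCT116 control. RNF141 averaged 17.0 ± 0.98 TPM in HCT15 control and 45.3 ± 2.24 TPM in HCT116 control, and RNF34 25.5 ± 3.33 and 47.5 ± 0.0416 TPM (SD, n = 3 each). RNF7 averaged 18.9 ± 6.77 TPM in HCT15 control and 41.0 ± 2.19 TPM in HCT116 control. RNF25, RNF4 and RNF166 were lower in HCT15 control by 0.54, 0.36 and 0.35 on the log2 scale.

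**Figure D5:**
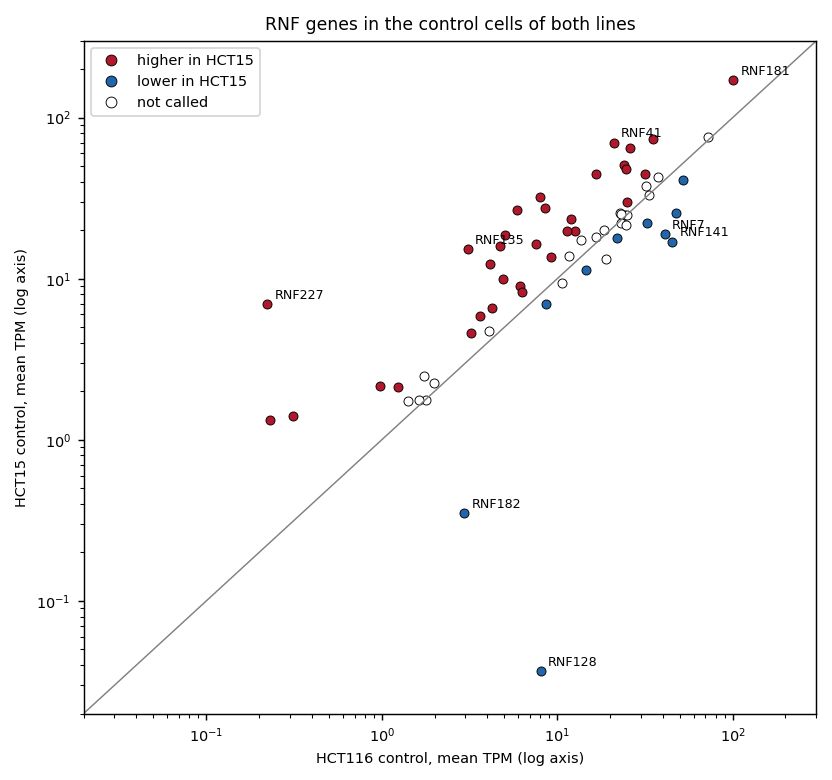
Mean TPM of the 64 RNF genes in HCT15 control (y axis, log scale) against HCT116 control (x axis, log scale), with the line of equal levels. Filled points were called by limma, 32 higher and 10 lower in HCT15, and RNF227 and RNF128 lie farthest from the line.

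Other genes of ubiquitin transfer were read beside the members in HCT15. Over all genes 31.2% fell and 5.39% rose, with a median log2 fold change of -0.17. Of 34 E2 enzymes 11 fell and none rose, or 32.4% lower, near that share, with a median of -0.11. With median-ratio scaling 4 E2 enzymes were lower and 10 higher, against 16.7% and 14.4% of all genes. Of 29 protein partners of members 20 fell and 1 rose, with a median of -0.38, among them UBAC1 at -0.57, the RNF31 partner SHARPIN at -0.58 and MDC1, which recruits RNF8, at -0.86. With median-ratio scaling 9 partners were lower and 4 higher, against the same 16.7% and 14.4%. Of 92 RING genes under other names 41 fell and 3 rose, and their median of -0.25 was close to that of the members. With median-ratio scaling 25 of them were lower and 10 higher, against 16.7% and 14.4% of all genes. UBA1, the main ubiquitin-activating enzyme, averaged 38.1 ± 1.92 TPM in HCT15 RNF26 libraries and 75.1 ± 4.51 TPM in HCT15 control (SD, n = 3 each, log2 fold change -0.96). The ubiquitin fusion gene RPS27A rose by 0.82 on the log2 scale. In HCT116 none of the genes in these lists was called.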

How the data were processed

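The authors deposited 1 table of TPM for the 12 libraries. Per the labels' protocols, poly(A) RNA was made into stranded paired-end libraries. The submitters' processing notes name GRCh38 and the tools HISAT2, RSEM, StringTie and fastp. Versions, annotation and strand settings: not given in the sources used here. Symbols, coordinates, GC content and length (medians over a gene's transcripts) came from the GENCODE annotation of GRCh38, and members were matched by Ensembl gene number. No 2 libraries were copies: at least 24770 genes differed between any pair.

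Tests used R 4.3.3 and limma 3.58.1 on log2(TPM + 1), which understates changes of low genes. A mean per group was fitted to all 12 libraries (eBayes with trend, two-sided), and p-values were adjusted over the 15584 genes with 1 TPM or more in at least 3 libraries. The script was tested on simulated data. The members and lists were chosen with earlier results of these data known. Named were RNF26, the 6 smallest p in HCT116, up to 12 largest changes each way in HCT15, 8 smallest p for the line difference, 8 largest changes each way between control cells, up to 4 per role list, the pairs and the highest levels. RNF2, RNF8, RNF146 and other members outside this rule were named after their values were seen. The 24 alternatives covered pseudocounts of 0.1 and 5, filters, scalings, a GC and length correction (splines with 5 degrees of freedom), fits of own groups, eBayes options, a replicate block and leaving out each library. Some genes counted in the totals are not reported by name here.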

Additional observations from a re-analysis of the deposited data

Results flagged for a closer look

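For 8 members the RNF26 effect differed between the lines by the test of the difference itself (limma, adjusted over all genes), each more negative in HCT15. The differences in log2 fold change, HCT15 minus HCT116, were -1.03 for RNF126, -0.90 for RNF135, -0.73 for RNF44, -0.67 for RNF40, -0.59 for RNF216, -0.56 for RNF220, -0.52 for RNF169 and -0.44 for RNF41. These are the 8 members with the smallest p of the 10 called, and 18.7% of all genes were called in this direction. RNF126 and RNF135 were also called with HCT15 control replicate 3 left out, and in the fit corrected for GC and length. Whether the smaller rise of RNF26 in HCT15 plays a part in these differences was not tested.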

How the results depend on the processing

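In HCT116, 0 members were called under every alternative. In HCT15 the count called lower, 27 as deposited, was 14 with median-ratio scaling, 12 with quantile normalization, 17 without mitochondrial and ribosomal protein genes, 15 after the GC and length correction and 15 in a fit of the HCT15 groups alone. The count called higher, 0 as deposited, was 6 with median-ratio scaling, 6 with quantile normalization, 3 without mitochondrial and ribosomal protein genes, 4 after the GC and length correction and 2 with a filter of 5 TPM. Over all genes, the fit of the HCT15 groups alone called 3528 of 15584 lower, and the filter of 5 TPM gave 757 of 10700 higher. Leaving out 1 library gave 18 to 28 lower and 0 to 2 higher, against 3725 to 4847 lower and 544 to 1170 higher over all genes. For the line difference, 10 as deposited, the count was 5 with median-ratio scaling, 3 with quantile normalization and 6 after the GC and length correction, and 7 to 17 on leaving out 1 library, the 17 (15 lower, 2 higher) without HCT15 control replicate 2. Over all genes the line difference gave 1823 to 3210 lower and 134 to 636 higher on leaving out 1 library. Between control cells the counts were 30 to 35 higher and 8 to 12 lower on leaving out 1 library. Over all genes those were 6352 to 6795 and 3720 to 4106. The cause was not tested. With a replicate block 20 members were lower and 1 higher in HCT15, against 4330 and 786 of 15584 genes. The line difference kept a count of 10. Deviations from the group mean correlated at -0.042 to 0.146 between same-numbered libraries and at -0.124 to 0.113 between the others. With 3 libraries per group these values cannot decide whether replicate numbers pair the libraries. No called result changed its direction. Depth is unknown for TPM, so low members such as RNF122 and RNF224 have no counting interval.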
